A study of Mus musculus with 9 samples.

Results

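The TGF-β ligands, receptors and receptor-activated Smads described here are 10 genes, Tgfb1, Tgfb2, Tgfb3, Inhba, Gdf11, Tgfbr1, Tgfbr2, Tgfbr3, Smad2 and Smad3, taken by symbol from the 32289 rows of each of 9 single-cell count tables. All 10 symbols were found once in every table. The libraries were prepared at E10.75, when mouse embryos had 37-39 somites, from forelimb buds, each made from a dissociated pair of buds, with 3 libraries from wild-type (Wt) embryos, 3 from EC1CRM8Δ/Δ (E1C8Δ/Δ) embryos and 3 from EC1CRM5Δ/Δ (E1C5Δ/Δ) embryos. Both mutant alleles are homozygous germline deletions of limb bud enhancers of Grem1, which encodes a secreted BMP antagonist, so that every cell of the bud carries them. All strains, Wt included, had been bred into a Swiss Albino background, and embryos of both sexes were used. The purpose was to find what the loss of Grem1 enhancers alters in the cells of the limb bud. The methods call the 3 libraries of a genotype biologically independent. Litters are not stated, and the p-values below measure the spread between these libraries.

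On GRCm38 with the GENCODE M21 annotation, all 10 are protein-coding genes. The counts are totals per gene and do not show which part of a gene was read. Tgfb1 (ENSMUSG00000002603) lies at chr7:25687002-25705077 on the plus strand, Tgfb2 (ENSMUSG00000039239) at chr1:186622792-186705989 on the minus strand and Tgfb3 (ENSMUSG00000021253) at chr12:86056745-86079041 on the minus strand. Inhba (ENSMUSG00000041324) lies at chr13:16011851-16031621 (plus) and Gdf11 (ENSMUSG00000025352) at chr10:128882295-128891718 (minus). The receptors Tgfbr1 (ENSMUSG00000007613), Tgfbr2 (ENSMUSG00000032440) and Tgfbr3 (ENSMUSG00000029287) lie at chr4:47353222-47414931 (plus), chr9:116084293-116175360 (minus) and chr5:107106570-107289629 (minus), Smad2 (ENSMUSG00000024563) at chr18:76241580-76310963 (plus) and Smad3 (ENSMUSG00000032402) at chr9:63646767-63757994 (minus). Genes are annotated on the opposite strand of Tgfb2 (Gm29491), Tgfb3 (Ttll5 and Gm48008) and Inhba (Gm48444). Cell Ranger at its default settings, as used by the authors, counts only reads on the strand of the gene.

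TGF-β ligands are secreted in latent form, held in the matrix by latent TGF-β binding proteins and released by integrins or thrombospondin. The active dimer is bound by the type II receptor TGFBR2, which recruits and phosphorylates the type I receptor TGFBR1 (ALK5), and SMAD2 and SMAD3 then carry the signal to the nucleus with SMAD4. TGFBR3 (betaglycan) is a co-receptor that presents ligand, above all TGF-β2. Activin A, the dimer of the Inhba product, and GDF11 signal to the same Smads through activin type II receptors. In the limb bud the family is known for roles in cartilage condensation, in tendon and muscle connective tissue and in the vessels.

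Total UMIs ranged from 26620760 to 500559729 per library, and after filters on cells and doublets 592 to 8699 cells per library were left, 44654 in all. Cells were assigned to a type by marker genes, none of them one of the 10, after each cell had been thinned to 10000 UMIs: 31164 cells passed as mesenchyme (9 libraries with at least 20 cells), 2006 as muscle progenitors (9), 2139 as erythroid (7), 488 as epithelium (6), 552 as endothelium (7) and 176 as myeloid (5). The defining markers were present in each type (for example the 10 endothelial markers summed to 4020 CPM in endothelium and to 5.38 CPM in mesenchyme, where CPM is the UMI count of a gene relative to all UMIs of the summed cells), whereas no megakaryocyte and only 2 neural crest cells passed. Up to 17 cells per library (in E1C8Δ/Δ replicate 2) held at least 5 megakaryocyte markers, but with too many markers of other types to pass. They are in no gate, so the levels and UMI shares below leave them out. With these included, 94 to 1168 cells per library were in no gate, and cells under 10000 UMIs were left out too. The levels and shares below therefore cover gated cells only. Fewer than 1% of barcodes (at most 0.901% of the smaller library) were shared by any pair of libraries. Xist was high in 4 of the 6 mutant libraries and in none of the 3 Wt libraries, so embryo sex is unevenly spread over the genotypes and X- and Y-linked genes were left out of the tests.

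Of the 10 genes, 7 had a promoter window in the RefSeq table (GRCm38.p6; 250 bases before to 50 after the start), and 3 are shown because their genes gave the largest differences between cell types or mesenchymal domains. Capitals mark matches on either strand to TATAAA (the TATA box), to CCAAT (the CCAAT box), to GGGCGG (the GC box), to CACGTG (an E-box) or to AGGAAG (an ETS core), none of which overlapped here. The first window lies at chr1:186705940-186706239 on the minus strand.
Tgfb2: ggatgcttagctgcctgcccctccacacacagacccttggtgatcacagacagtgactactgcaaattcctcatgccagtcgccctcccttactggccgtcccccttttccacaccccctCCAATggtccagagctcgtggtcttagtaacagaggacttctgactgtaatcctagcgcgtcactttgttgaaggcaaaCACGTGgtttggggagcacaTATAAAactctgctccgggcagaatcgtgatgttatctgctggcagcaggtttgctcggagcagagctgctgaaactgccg
The second lies at chr7:25686752-25687051 on the plus strand.
Tgfb1: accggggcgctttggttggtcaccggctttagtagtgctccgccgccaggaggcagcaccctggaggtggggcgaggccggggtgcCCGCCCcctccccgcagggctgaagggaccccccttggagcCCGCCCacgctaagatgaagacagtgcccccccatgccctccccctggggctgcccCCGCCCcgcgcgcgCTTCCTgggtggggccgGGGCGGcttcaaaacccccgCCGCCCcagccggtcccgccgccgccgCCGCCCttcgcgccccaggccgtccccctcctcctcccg
The last lies at chr9:116175314-116175613 on the minus strand.
Tgfbr2: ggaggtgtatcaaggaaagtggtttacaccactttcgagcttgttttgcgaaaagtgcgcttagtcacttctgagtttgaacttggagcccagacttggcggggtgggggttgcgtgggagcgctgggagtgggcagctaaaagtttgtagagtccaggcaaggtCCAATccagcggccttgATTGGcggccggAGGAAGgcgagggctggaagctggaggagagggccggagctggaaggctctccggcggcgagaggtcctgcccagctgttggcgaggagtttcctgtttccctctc
The Tgfb2 window held TATAAA 31 bases upstream of the start, CACGTG 51 bases and CCAAT 130 bases upstream. Of the 32851 promoters of the same length, 13.6% held TATAAA, 7.15% held CACGTG and 37.4% held CCAAT. The Tgfb1 window held none of those but 6 matches to GGGCGG (in 35.7% of all promoters) and 1 to AGGAAG (in 35.4%), and the Tgfbr2 window held 2 CCAAT and 1 AGGAAG. A match is only a match of letters, and no binding was measured.

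Which cells of the bud carry the transcripts was asked first, by comparing each gated type with the mesenchyme of the same libraries. Tgfb1 followed the blood and vessel compartment and was high in endothelium and myeloid cells, intermediate in erythroid cells and epithelium, and lowest in mesenchyme and muscle progenitors. Tgfb2 and Gdf11 were high in mesenchyme, Tgfb3 was spread over mesenchyme and muscle, and Inhba was close to the limit of detection. On the receptor side, Tgfbr2 was concentrated in endothelium and myeloid cells, while Tgfbr1, Smad2 and Smad3 were found in all types, at their lowest in erythroid cells.

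Tgfb1, which encodes TGF-β1, measured 0.369 to 0.756 CPM in mesenchyme (median 0.669, 9 libraries) and 110.02 to 167 CPM in endothelium (median 141.6, 7 libraries). In myeloid cells the 5 libraries gave 198.9 and 168.9 CPM in Wt, 122.8 CPM in E1C8Δ/Δ, and 181.5 and 178.6 CPM in E1C5Δ/Δ. Every endothelial and myeloid library lay far above every mesenchymal one. At 10000 UMIs per cell, 73.0% of endothelial and 75.5% of myeloid cells held at least 1 Tgfb1 UMI, against 0.554% of mesenchymal cells. The log2 fold change against mesenchyme was 8.08 (SE 0.12) in endothelium and 8.36 (SE 0.13) in myeloid cells (edgeR quasi-likelihood, adjusted p = 7.36e-40 and 6.26e-39). Erythroid cells, at 17.0 ± 2.7 CPM (SD, n = 7), and epithelium, at 10.9 ± 2.0 CPM (SD, n = 6), were also above mesenchyme, by 6.32 and 4.28 on the log2 scale. Muscle progenitors, at 0.656 ± 0.520 CPM (SD, n = 9), differed from mesenchyme by 0.05 on the log2 scale (adjusted p = 0.905). Endothelium made up 1.51% of the gated cells and held 53.1% of the Tgfb1 UMIs in gated cells, the myeloid cells 0.482% of the cells and 19.0% of the UMIs, and mesenchyme 85.3% of the cells and 8.21% of the UMIs.

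Tgfb2, which encodes TGF-β2, measured 41.9 to 69.7 CPM in mesenchyme (median 51.0), 10.71 to 37.8 CPM in muscle progenitors (median 21.0) and 28.1 to 39.1 CPM in endothelium (median 30.7). Muscle and endothelium each lay below mesenchyme in all their libraries. The log2 fold change against mesenchyme was -1.35 in muscle progenitors (SE 0.26, adjusted p = 3.60e-05), and -3.54 and -3.71 in erythroid and myeloid cells. In epithelium 5 libraries gave 19.8 to 29.9 CPM and E1C5Δ/Δ replicate 1 gave 291.1 CPM, where 360 of 450 UMIs came from a single cell of 48. With that library the epithelial difference was -0.08 (SE 0.32, adjusted p = 0.859), and without it -1.23 (adjusted p = 7.34e-09). The endothelial difference was likewise -0.51 (SE 0.29, adjusted p = 0.116) with and -0.57 (adjusted p = 4.08e-05) without that library.

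Tgfb3, which encodes TGF-β3, measured 4.06 to 7.66 CPM in mesenchyme (median 4.98) and 5.47 to 9.56 CPM in muscle progenitors (median 7.85). The ranges of the types overlapped, and within libraries muscle was higher by 0.63 on the log2 scale (SE 0.13, adjusted p = 8.48e-05), or by 0.30 (adjusted p = 0.351) in the 3 Wt libraries alone. It was lower in epithelium (-1.76), endothelium (-3.63), erythroid (-3.54) and myeloid cells (-3.55), with means of 0.216 to 1.76 CPM there. Gdf11, a ligand that patterns the trunk and tail, fell from 50.8 ± 6.6 CPM (SD, n = 9) in mesenchyme through 39.1 ± 6.0 CPM (SD, n = 9) in muscle and 22.1 ± 4.2 CPM (SD, n = 6) in epithelium to 3.30 to 6.22 CPM in erythroid, endothelial and myeloid cells, and all 5 differences passed the test (log2 -0.29 to -3.06). DESeq2 did not call the smallest of these, that in muscle. Inhba, the activin A subunit, gave 231 UMIs in all mesenchymal cells (0.084 to 0.380 CPM by library), none in erythroid cells, which allows up to 0.0491 CPM, and none in endothelium, which allows up to 0.128 CPM. It was too low for the test between types. All 21 Inhba UMIs of the myeloid gate lay in 1 cell of E1C5Δ/Δ replicate 1.

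**Figure D1:**
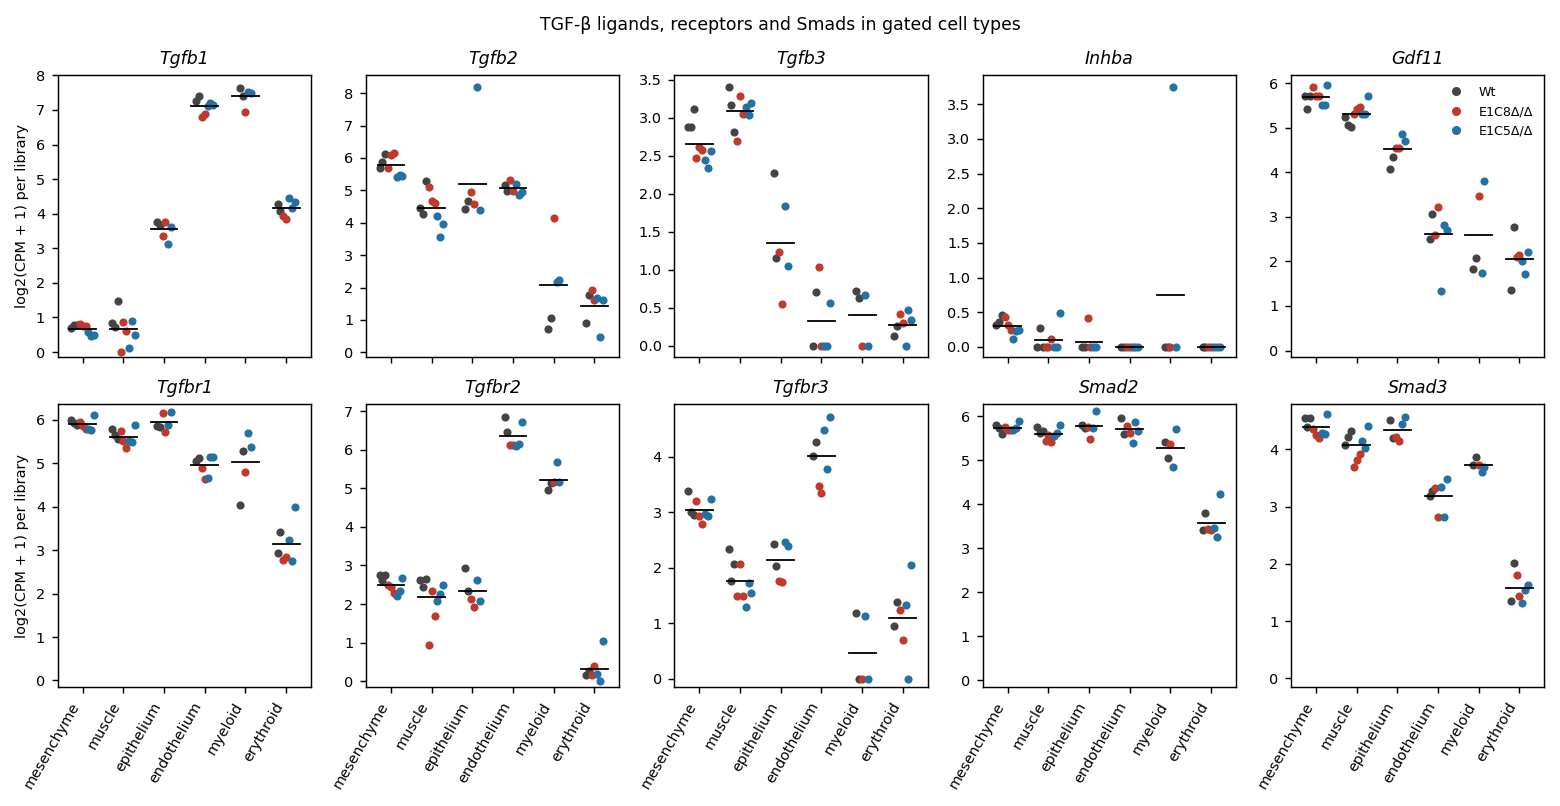
Level of each of the 10 genes in 6 gated cell types, as log2(CPM + 1) on the y axis, with 1 point per library coloured by genotype and a bar at the mean. Tgfb1 stands at 110.02 to 167 CPM in endothelium against 0.369 to 0.756 CPM in mesenchyme, Tgfbr2 is raised in endothelium and myeloid cells but not in erythroid cells or epithelium, and the raised Tgfb2 point in epithelium (291.1 CPM) and Inhba point in myeloid cells are each mostly or wholly 1 cell of E1C5Δ/Δ replicate 1.

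Tgfbr2, the type II receptor, measured 67.1 to 113.2 CPM in endothelium (median 69.9, 7 libraries), 30.2 to 50.7 CPM in myeloid cells (median 34.6, 5 libraries) and 3.63 to 5.69 CPM in mesenchyme (median 4.60, 9 libraries). The 3 ranges did not overlap. Endothelium was higher than mesenchyme by 4.32 on the log2 scale (SE 0.11, adjusted p = 2.50e-32) and myeloid cells by 3.095 (SE 0.16, adjusted p = 6.05e-21), while muscle and epithelium, with means of 3.75 and 4.19 CPM, did not pass the test (adjusted p = 0.228 and 0.437). In erythroid cells, where Tgfb1 was raised, Tgfbr2 was lower than in mesenchyme, at 0 to 1.04 CPM (median 0.137), by -3.01 (adjusted p = 1.04e-11). Tgfbr3, the co-receptor, was highest in endothelium, at 9.14 to 25.2 CPM (median 15.1) against 5.95 to 9.37 CPM in mesenchyme (median 6.87), a log2 difference of 1.28 (SE 0.15, adjusted p = 4.74e-10) with 1 endothelial library inside the mesenchymal range. It was lower in muscle progenitors, at 1.44 to 4.08 CPM (log2 -1.55, SE 0.16, adjusted p = 1.26e-10), and in epithelium (-1.12), erythroid (-1.21) and myeloid cells (-3.64).

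Tgfbr1, the type I receptor, measured 58.6 ± 4.9 CPM (SD, n = 9) in mesenchyme and 60.8 ± 8.1 CPM (SD, n = 6) in epithelium, which did not differ beyond their spread (adjusted p = 0.609). It was lower in endothelium (30.2 ± 4.5 CPM, SD, n = 7, log2 -0.79) and myeloid cells (34.3 ± 13.5 CPM, SD, n = 5, log2 -0.63), and lowest in erythroid cells (8.20 ± 3.28 CPM, SD, n = 7, log2 -1.47). The muscle difference of -0.22 (adjusted p = 0.0203) was lost without E1C8Δ/Δ replicate 2 (adjusted p = 0.0517) or replicate 3 (adjusted p = 0.0725). Smad2, the first of the receptor-activated Smads, measured 47.7 to 53.9 CPM on average in mesenchyme, muscle, epithelium and endothelium, with log2 differences of -0.05 to 0.11 from mesenchyme. The endothelial value of 0.11 (adjusted p = 0.109) was called without E1C5Δ/Δ replicate 1 (adjusted p = 0.0457) or replicate 3 (adjusted p = 0.0411), and it was -0.03 when libraries were scaled by their totals. Smad2 was lower in erythroid cells (11.2 ± 3.2 CPM, SD, n = 7, log2 -0.83, adjusted p = 8.28e-14) and in myeloid cells (38.6 ± 9.3 CPM, SD, n = 5, log2 -0.34, adjusted p = 0.00224, but 0.0857 in the Wt libraries alone). Smad3 measured 20.1 ± 2.3 CPM (SD, n = 9) in mesenchyme and 8.18 ± 1.56 CPM (SD, n = 7) in endothelium, a log2 difference of -1.11 (SE 0.10, adjusted p = 4.74e-13). It was also lower in erythroid cells (-1.89), myeloid cells (-0.59, adjusted p = 0.0565 in the Wt libraries alone) and muscle progenitors (-0.23, adjusted p = 0.00752).

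Over the 9 genes tested, 6 passed in muscle, 9 in erythroid cells, 4 in epithelium, 7 in endothelium and 9 in myeloid cells, against 42.7%, 77.8%, 52.3%, 70.4% and 68.5% of all genes tested, so that the shares of called genes did not set the group apart in every type. In erythroid cells hemoglobin transcripts took 44.5% of UMIs (at most 0.107% elsewhere), and scaling by library totals in place of TMM moved the median of all genes there by -1.44 on the log2 scale, in endothelium by -0.15 and in myeloid cells by -0.15. The 8 mesenchymal markers summed to 2013 CPM in mesenchyme, 188 CPM in muscle, 172 CPM in epithelium, 111 CPM in myeloid cells, 103 CPM in endothelium and 62.9 CPM in erythroid cells. The part of such mesenchymal RNA in the Tgfb2 and Gdf11 levels of the other types was not tested.

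Where in the mesenchyme the genes were higher or lower was asked next, in 11 marker-gated domains, each against the mesenchymal cells outside it in the same libraries. Domains are named by their markers and may overlap. Many of the markers are genes that the paper lists for its own clusters of these cells. The paper also reports Tgfb2 in most cells of its Gsc cluster, so the Gsc result below is not independent of it. The clearest pattern was that of Tgfb2, which was high in the Gsc, Pax1 and Sox9 core domains and low in the Hoxa13/Hoxd13, Osr2, Shh and Hoxa11 domains. Tgfbr3 and Tgfbr1 were also low in the Hoxa13/Hoxd13 and Shh domains, and Tgfb3 was high in the Sox9 core and the Osr2 domain. Over all genes and domains, 51 differences of the 10 genes passed the test, and 35 of these passed when any 1 library was left out and with DESeq2. The other 16, the largest of them 0.564 in size on the log2 scale, depended on a library.

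In the Gsc domain (Gsc, Creb5, Sox8, Meis1 and Irx3; 1185 cells, 9 libraries), Tgfb2 ranged from 85.6 to 219.7 CPM (median 145.1) and averaged 51.7 ± 10.0 CPM (SD, n = 9) in the cells outside. It was higher inside in 9 of 9 libraries, by 1.36 on the log2 scale (SE 0.06, adjusted p = 3.21e-17). At 10000 UMIs per cell, 66.0% of these cells held a Tgfb2 UMI, against 32.6% of all mesenchymal cells. In the Pax1 domain (Pax1, Alx4, Hoxb5, Hoxb6 and Runx2; 983 cells) it ranged from 96.6 to 156.1 CPM (median 120.7) and was higher in 9 of 9 libraries, by 1.19 (SE 0.04, adjusted p = 4.99e-19). In the Sox9 core (Sox9, Col2a1, Sox5, Sox6, Tbx15 and Tbx18; 2531 cells), the mesenchyme that condenses to cartilage, it ranged from 55.2 to 117.8 CPM (median 92.4) and was higher in 9 of 9 libraries, by 0.66 (SE 0.04, adjusted p = 2.38e-13). Smaller rises of 0.39 and 0.34 were measured in the Sostdc1 (Sostdc1, Hgf, Ebf2, Meox2 and Scx) and Emx2 (Emx2, Gria2, Ntn1 and Hoxb8) domains, and the Osr1 domain (Osr1, Dkk1, Tbx3, Epha3 and Alcam) was lower by -0.18.

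At the other end, Tgfb2 in the Hoxa13/Hoxd13 domain (Hoxa13, Hoxd13, Tfap2b, Jag1, Lmo2, Hey1 and Gja3; 1110 cells), the distal mesenchyme that forms the hand plate, ranged from 14.0 to 27.2 CPM (median 16.7) and averaged 56.7 ± 12.04 CPM (SD, n = 9) outside. It was lower inside in 9 of 9 libraries, by -1.58 on the log2 scale (SE 0.10, adjusted p = 1.33e-12). The Osr2 domain (Osr2, Smoc1, Nrp2 and Fgf18) ranged from 10.98 to 42.3 CPM and was lower in 8 of 8 libraries (-1.36), the Shh domain (Shh, Hoxd12, Prdm1, Tbx2 and Bmp2) from 15.3 to 29.7 CPM and lower in 6 of 6 (-1.32), and the Hoxa11 domain (Hoxa11, Sall3, Cyp26b1, Fgf10 and Frzb) from 6.19 to 30.8 CPM and lower in 9 of 9 (-1.23). Requiring 1 more marker left too few cells for a test in the Gsc, Emx2, Shh and Osr2 domains. It could not be done in the Lhx2/Msx1 domain, whose gate already required all 5 of its markers. The other 6 of the 11 Tgfb2 calls were kept, as were 8 of 8 in the Wt libraries alone. The call in the Lhx2/Msx1 domain (Asb4, Lhx2, Msx1, Msx2 and Dlx5; -0.19, adjusted p = 0.0472) was lost without Wt replicate 2 (adjusted p = 0.201), E1C8Δ/Δ replicate 2 (0.346) or E1C8Δ/Δ replicate 3 (0.227), and all 5 calls of the 10 genes in that domain were lost without 1 or more libraries.

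**Figure D2:**
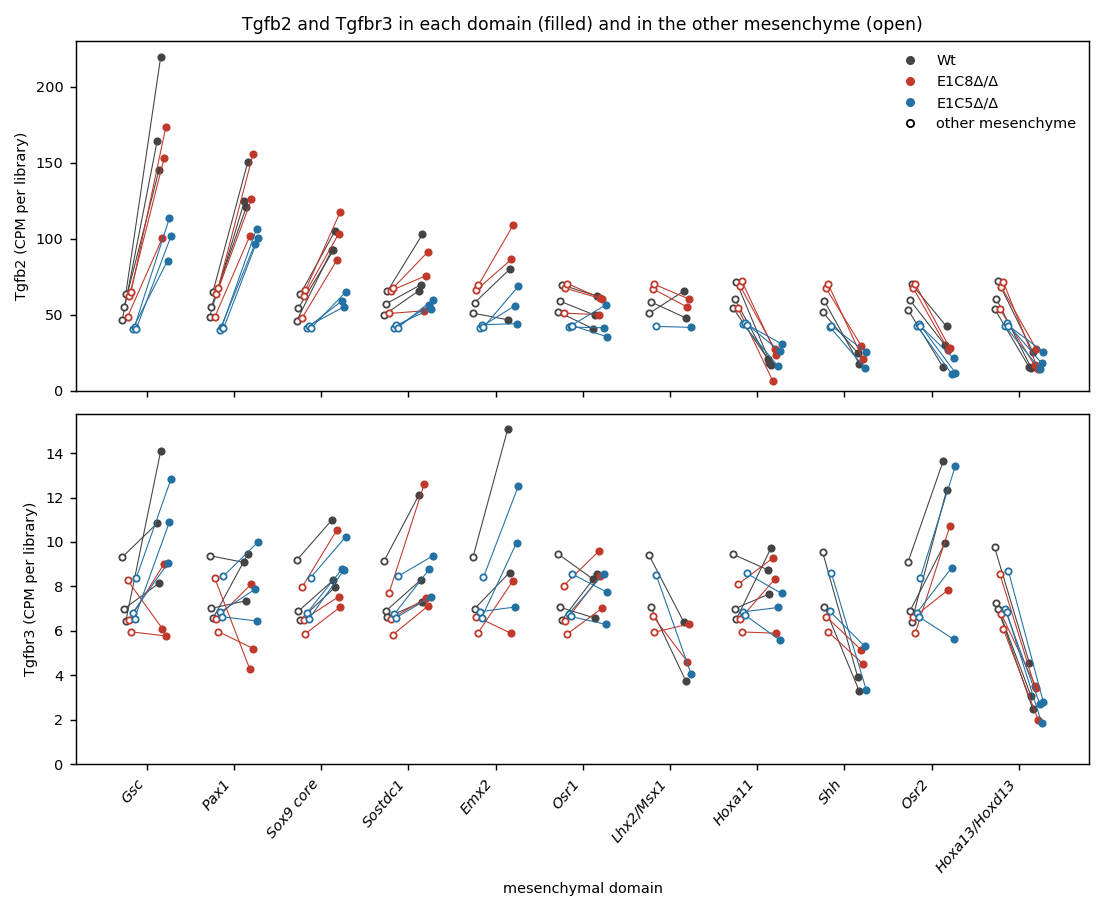
CPM of Tgfb2 (top) and Tgfbr3 (bottom) on the y axis in 11 mesenchymal domains (filled points) and in the mesenchymal cells outside each (open points), with a line joining both values of 1 library and colours for the genotypes. Tgfb2 lines rise in all 9 libraries in the Gsc, Pax1 and Sox9 core domains and fall in all in the Hoxa11, Shh, Osr2 and Hoxa13/Hoxd13 domains, and Tgfbr3 lines fall in 9 of 9 libraries in the Hoxa13/Hoxd13 domain and in 6 of 6 in the Shh domain.

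Tgfb3 had 9 called domains, of which 5 held without any 1 library. In the Sox9 core it ranged from 7.14 to 12.2 CPM (median 7.99), with 5.05 ± 1.03 CPM (SD, n = 9) outside, and was higher in 9 of 9 libraries by 0.68 on the log2 scale (SE 0.07, adjusted p = 1.71e-09). In the Osr2 domain it ranged from 2.25 to 17.6 CPM (median 7.99) and was higher in 7 of 8 libraries by 0.57, and in the Sostdc1 domain it was higher by 0.34, though by 0.13 (adjusted p = 0.833) with 1 more marker. It was lower in the Shh domain in 6 of 6 libraries, by -0.89, and in the Hoxa13/Hoxd13 domain in 7 of 9, by -0.44, or by -0.23 (adjusted p = 0.222) in the Wt libraries alone. In the Osr2 domain Tgfb2 and Tgfb3 thus moved apart, one falling and the other rising. Gdf11 was raised in the Gsc domain, at 60.4 to 100.6 CPM (median 75.9) against 49.8 ± 6.3 CPM (SD, n = 9) outside, in 9 of 9 libraries (0.58, SE 0.04), and in the Sox9 core in 9 of 9 (0.40), and it was lower in the Shh domain in 6 of 6 (-0.33). Tgfb1 gave log2 values between -0.78 and 0.39 over the 11 domains, with no adjusted p below 0.235. Its counts there were low, from 8 UMIs in the Lhx2/Msx1 domain to 61 in the Sox9 core over all libraries, so differences may have been missed. Inhba could be tested in 3 domains, the Sox9 core, the Shh and the Lhx2/Msx1 domain, and did not pass (adjusted p = 0.289, 0.285 and 0.833).

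Among the receptors, Tgfbr3 in the Hoxa13/Hoxd13 domain ranged from 1.86 to 4.54 CPM (median 2.79) and averaged 7.54 ± 1.19 CPM (SD, n = 9) outside. It was lower in 9 of 9 libraries, by -1.33 on the log2 scale (SE 0.10, adjusted p = 8.61e-11), and in the Shh domain in 6 of 6 libraries, by -1.06 (SE 0.18, adjusted p = 2.68e-07). It was higher in the Osr2 domain, at 5.62 to 13.6 CPM (median 10.3), in 7 of 8 libraries, by 0.55. Rises of 0.28 and 0.19 in the Sostdc1 domain and the Sox9 core held without any 1 library but were 0.39 (adjusted p = 0.138) and -0.02 (adjusted p = 0.926) with 1 more marker.

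Tgfbr1 was called in 9 domains with sizes of 0.41 or less on the log2 scale. It was lowest in the Hoxa13/Hoxd13 domain, at 33.4 to 57.2 CPM (median 43.4) against 59.3 ± 5.0 CPM (SD, n = 9) outside, lower in 9 of 9 libraries (-0.41, SE 0.05), and it was highest in the Emx2 domain, at 65.3 to 94.0 CPM (median 76.8), higher in 7 of 7 (0.36, SE 0.05). With 1 more marker 5 of these 9 calls could be tested. Those in the Hoxa13/Hoxd13 and Hoxa11 domains held. Those in the Sox9 core (adjusted p = 0.147), Pax1 (0.343) and Sostdc1 domains (0.473) were lost. Tgfbr2 was raised in the Emx2 domain in 7 of 7 libraries, at 5.15 to 9.12 CPM (median 7.18), by 0.58 (SE 0.16, adjusted p = 0.00221). Smad2 and Smad3 moved little. Smad2 differed by -0.16 in the Sox9 core, 0.16 in the Hoxa13/Hoxd13 domain and 0.13 in the Hoxa11 domain, none of which passed with 1 more marker (adjusted p = 0.120, 0.520 and 0.565). The 2 Smad3 calls, 0.15 and 0.14, each depended on a library (adjusted p = 0.0661 without Wt replicate 2, and 0.144 without E1C5Δ/Δ replicate 3).

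Counting the 10 genes in the order of the plot of domain differences, 5 of 9 tested were called in the Gsc domain (53.3% of all genes), 4 of 9 in Pax1 (24.9%), 7 of 10 in the Sox9 core (59.7%), 5 of 9 in Sostdc1 (19.2%), 4 of 9 in Emx2 (31%), 2 of 9 in Osr1 (34.1%), 5 of 10 in Lhx2/Msx1 (15.7%), 4 of 9 in Hoxa11 (47.2%), 5 of 10 in Shh (19.5%), 4 of 9 in Osr2 (15%) and 6 of 9 in Hoxa13/Hoxd13 (48.2%). Some domains also differed in depth: the median UMI count per cell inside the Hoxa13/Hoxd13 domain was 1.15 to 1.54 times that outside (median 1.24), and inside the Gsc domain 0.730 to 1.04 times (median 0.920). Its part in these differences was not tested beyond the thinning of cells before gating and the scaling of libraries.

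**Figure D3:**
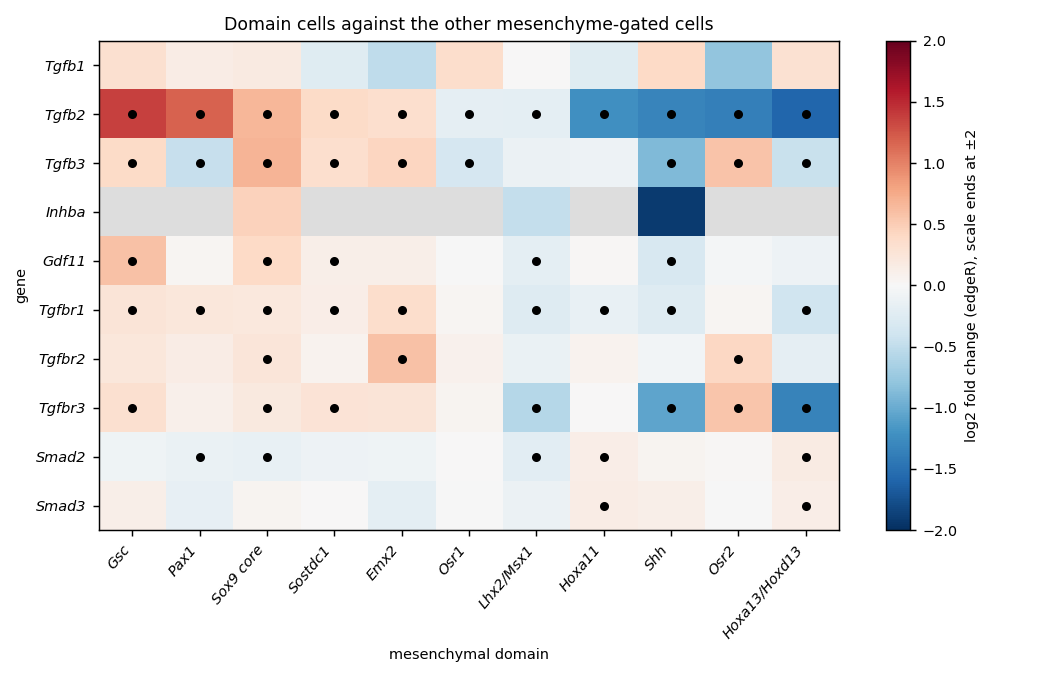
Log2 fold change of each gene (rows) in each domain (columns) against the other mesenchymal cells, on a colour scale that ends at 2 in either direction, with a dot for adjusted p under 0.05 and grey for genes not tested. The Tgfb2 row runs from 1.36 in the Gsc domain to -1.58 in the Hoxa13/Hoxd13 domain, and the Tgfb1 and Inhba rows hold no dot.

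Whether the Grem1 alleles alter the 10 genes was asked in mesenchyme, where all 9 libraries entered, with CPM on edgeR's scaled library sizes. Grem1 itself, as a check of the labels, measured 43.8, 30.3 and 31.2 CPM in Wt, 11.5, 11.2 and 14.0 CPM in E1C8Δ/Δ, and 19.2, 17.5 and 26.8 CPM in E1C5Δ/Δ. All 6 mutant libraries lay below all Wt libraries, with a log2 difference of -1.12 for the mean of both mutants (SE 0.15, adjusted p = 0.00509), -1.51 for E1C8Δ/Δ (adjusted p = 0.00212) and -0.73 for E1C5Δ/Δ (adjusted p = 0.0668).

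Tgfb3 was the 1 gene of the 10 that passed for the mean of both mutants, beside 2.09% of all genes tested. It measured 6.52, 6.79 and 7.57 CPM in Wt, 4.31, 5.16 and 5.22 CPM in E1C8Δ/Δ, and 4.93, 4.41 and 5.02 CPM in E1C5Δ/Δ. The groups did not overlap, as in 3.57% of all genes with all mutant libraries below Wt. The log2 difference was -0.51 (SE 0.10, adjusted p = 0.0346), with -0.48 (SE 0.12, adjusted p = 0.0368) in E1C8Δ/Δ (where 8.25% of all genes passed) and -0.54 (SE 0.12, adjusted p = 0.0544) in E1C5Δ/Δ (1.53%). The size stayed between -0.43 and -0.56 when any 1 library was left out, but the call was lost without any library except E1C5Δ/Δ replicate 3 (adjusted p 0.0529 to 0.0924 in the other 8), and with embryo sex as a covariate (-0.52, adjusted p = 0.271). The shares of mesenchymal cells in domains where Tgfb3 was called higher also differed by genotype, but not all in the same direction. The Osr2 domain held 4.48% to 5.36% of the mesenchyme in the Wt libraries and 1.30% to 2.03% in the 6 mutant libraries. The Sox9 core held 9.59% to 13.9% in Wt, 7.57% to 10.5% in E1C8Δ/Δ and 2.48% to 5.97% in E1C5Δ/Δ. The Gsc domain held 3.13% to 3.48%, 5.10% to 6.08% and 2.10% to 2.98% in the same order of genotypes. The Sostdc1 domain held 8.99% to 9.60%, 9.11% to 10.2% and 3.41% to 5.14%, and the Emx2 domain 0.619% to 1.66%, 1.28% to 2.53% and 1.31% to 2.43%. The Hoxa13/Hoxd13 domain, where Tgfb3 was lower, held 4.11% to 5.85%, 2.81% to 5.57% and 2.25% to 3.67%. In mesenchyme outside the Osr2 domain the difference for both mutants was -0.46 (SE 0.10, adjusted p = 0.0430). Outside the Sox9 core it was -0.47 (SE 0.11) and did not pass (adjusted p = 0.0651).

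Tgfbr2 measured 5.80, 5.55 and 5.61 CPM in Wt, 4.38, 4.46 and 4.03 CPM in E1C8Δ/Δ, and 4.02, 4.40 and 5.46 CPM in E1C5Δ/Δ. All 6 mutant libraries lay below all Wt libraries, the last by little, and the difference of -0.34 (SE 0.11) did not pass (adjusted p = 0.132), except without E1C5Δ/Δ replicate 3 (-0.41, adjusted p = 0.0464). Tgfb2 measured 52.0, 62.4 and 68.0 CPM in Wt, 48.5, 66.8 and 73.1 CPM in E1C8Δ/Δ, and 46.5, 47.2 and 43.1 CPM in E1C5Δ/Δ. The E1C5Δ/Δ libraries lay below the others and the E1C8Δ/Δ libraries spanned the Wt range, but neither the E1C5Δ/Δ difference (-0.42, SE 0.14, adjusted p = 0.202) nor that between the alleles (0.48, SE 0.14, adjusted p = 0.0595, beside 9.23% of all genes) passed. These levels are of all mesenchymal cells together, so they also carry the domain shares given above. Of the domains with high Tgfb2, the Sox9 core, Gsc and Sostdc1 domains held smaller shares in E1C5Δ/Δ than in Wt, and the Emx2 domain did not. The Osr2 and Hoxa13/Hoxd13 domains, with low Tgfb2, also held smaller shares there.

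Smad3 measured 23.0, 21.4 and 22.2 CPM in Wt, 18.5, 18.2 and 18.3 CPM in E1C8Δ/Δ, and 20.7, 19.9 and 24.1 CPM in E1C5Δ/Δ. The E1C8Δ/Δ libraries lay below the rest, by -0.27 on the log2 scale (SE 0.09, adjusted p = 0.0839, and 0.0404 without E1C5Δ/Δ replicate 3). Tgfb1 (-0.31, adjusted p = 0.388), Inhba (-0.64, adjusted p = 0.256), Gdf11 (0.12, adjusted p = 0.504), Tgfbr1 (-0.04, adjusted p = 0.827), Tgfbr3 (-0.12, adjusted p = 0.657) and Smad2 (0.04, adjusted p = 0.812) did not pass for the mean of both mutants. In simulated counts with 3 libraries a group, 81.5% of genes changed by 1 on the log2 scale were recovered, so smaller differences may have been missed.

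**Figure D4:**
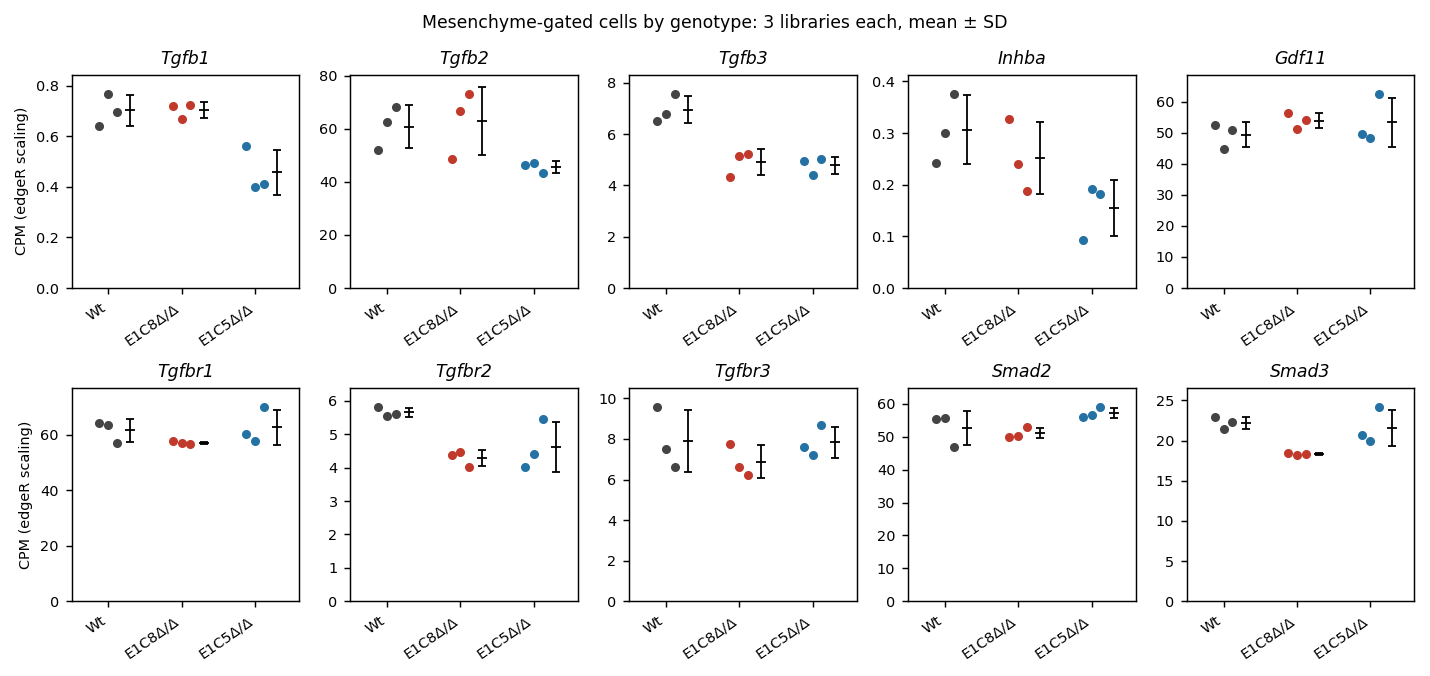
CPM of each gene in mesenchyme by genotype on linear y axes from 0, with 1 point per library and the mean ± SD beside each group of 3. The 6 mutant points lie below the 3 Wt points for Tgfb3 and Tgfbr2, and for the other genes at least 1 mutant point lies at or above the lowest Wt point.

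In the other types, where 31 tests of the 10 genes could be made, 0 passed with edgeR for the mean of both mutants (5 at an unadjusted p under 0.05, and 0 with DESeq2), beside adjusted calls for 1.39% of all genes in muscle, 0.00953% in endothelium, and 0 in erythroid cells and epithelium. Of all genes, 14.1% reached that unadjusted p in muscle, 2.68% in erythroid cells, 3.91% in epithelium and 5.84% in endothelium. Endothelial Tgfb1 measured 151.2 and 167.0 CPM in Wt, 110.02 and 118.0 CPM in E1C8Δ/Δ, and 137.2, 146.5 and 141.6 CPM in E1C5Δ/Δ. The difference of -0.31 did not pass (adjusted p = 0.829). In myeloid cells this fit, which was set to need 2 libraries of every genotype, was not run, since 1 E1C8Δ/Δ library held 20 or more cells. Whether a genotype difference itself differed between a type and mesenchyme was tested 45 times, and 0 passed with edgeR (2 at an unadjusted p under 0.05), beside 0.0439% of all genes for muscle, 0.0293% for erythroid cells, 0.0146% for myeloid cells and 0 for epithelium and endothelium. That unadjusted p was reached by 2.43% to 6.77% of all genes in the 5 comparisons. The 9 tests in myeloid cells rested on 1 E1C8Δ/Δ library, assumed to vary like the others.

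Within the domains, 0 of 79 tests passed for the mean of both mutants with edgeR (6 at an unadjusted p under 0.05, and 0 with DESeq2), beside an adjusted call for 1.48% of all genes in the Sox9 core, 1.29% in the Osr2, 1.13% in the Hoxa13/Hoxd13, 0.835% in the Hoxa11, 0.63% in the Sostdc1, 0.337% in the Pax1, 0.126% in the Osr1, 0.0979% in the Gsc, 0.0301% in the Shh and 0.029% in the Emx2 domain. Of all genes, 7.96% to 16% reached that unadjusted p in these 10 domains. For E1C5Δ/Δ alone, Tgfb2 in the Sox9 core passed, the 1 call in 79 tests (1.32% of all genes in that domain, against 1.43% in the Osr2, 0.569% in the Hoxa13/Hoxd13, 0.415% in the Sostdc1, 0.368% in the Hoxa11, 0.159% in the Pax1, 0.0623% in the Gsc and 0.0418% in the Osr1 domain, and 0 in the Shh and Emx2 domains). It measured 92.4, 92.4 and 105.3 CPM in Wt, 85.9, 103.2 and 117.8 CPM in E1C8Δ/Δ, and 59.3, 55.2 and 64.8 CPM in E1C5Δ/Δ. The E1C5Δ/Δ libraries lay below all others, by -0.63 from Wt on the log2 scale (SE 0.13, adjusted p = 0.0259). The size ranged from -0.67 to -0.58 without any 1 library, but the call held in 4 of these 9 fits and was lost most without Wt replicate 3 (adjusted p = 0.0805) and with a sex covariate (-0.54, adjusted p = 0.392). In the Gsc domain the E1C5Δ/Δ difference was -0.76 (SE 0.19) and did not pass (adjusted p = 0.139). Tgfb3 in the Hoxa13/Hoxd13 domain gave -0.86 for the mean of both mutants (SE 0.26, adjusted p = 0.124).

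Of 49 further pathway genes listed, 48 were in the tables under those symbols and 41 could be tested in mesenchyme. For the mean of both mutants 3 of the 41 passed, 2 lower and 1 higher, beside 2.09% of all genes, with a median log2 value of -0.06 (-0.01 over all genes). Thbs1, thrombospondin 1, which frees latent TGF-β, measured 4.14, 3.24 and 4.94 CPM in Wt, 2.48, 2.45 and 1.76 CPM in E1C8Δ/Δ, and 1.88, 1.76 and 2.09 CPM in E1C5Δ/Δ. It was lower in 6 of 6 mutant libraries, by -0.99 (SE 0.16, adjusted p = 0.0169), with the call lost without Wt replicate 3 (-0.83, adjusted p = 0.0594) and with a sex covariate (-1.20, adjusted p = 0.0901). Ltbp1, a latent TGF-β binding protein, measured 13.6, 12.7 and 14.4 CPM in Wt, 8.95, 11.1 and 10.2 CPM in E1C8Δ/Δ, and 9.77, 10.1 and 9.73 CPM in E1C5Δ/Δ, again lower in 6 of 6 (-0.43, SE 0.09, adjusted p = 0.0343), but called in 1 of the 9 fits without a library and lost with a sex covariate (-0.41, adjusted p = 0.294). Bambi, a decoy receptor of BMP and TGF-β signalling, measured 42.4, 38.3 and 38.2 CPM in Wt, 63.1, 61.0 and 62.8 CPM in E1C8Δ/Δ, and 40.9, 45.1 and 44.7 CPM in E1C5Δ/Δ. The E1C8Δ/Δ libraries lay far above the rest, by 0.66 from Wt (adjusted p = 0.00212), a call that held in 9 of 9 fits without a library and with a sex covariate (adjusted p = 0.0196). For the mean of both mutants Bambi gave 0.40 (adjusted p = 0.0182), and this call held in 7 of the 9 fits. It was lost without Wt replicate 2 (0.37, adjusted p = 0.0801) and without Wt replicate 3 (0.38, adjusted p = 0.0601). It was also lost with the sex covariate (0.43, adjusted p = 0.137) and with scaling by library totals (0.38, adjusted p = 0.0573).

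In E1C8Δ/Δ 6 of the 41 passed, beside 8.25% of all genes, Tgif1 (0.54), a corepressor of Smad complexes, and Ski (-0.40), another, and the microfibril gene Fbn2 (-0.36) beside Bambi, Thbs1 and Ltbp1. Tgif1 was lost without E1C8Δ/Δ replicate 1 (adjusted p = 0.0606), Ski and Fbn2 in 5 and 7 of the 9 fits without a library. With a sex covariate only Bambi of these 6 passed, and the rest had adjusted p from 0.0599 (Thbs1) to 0.177 (Ltbp1). In E1C5Δ/Δ 3 passed, beside 1.53% of all genes, Thbs1 (-1.09), the integrin Itgb8 (-0.93), which activates latent TGF-β, and Fst (-2.52), follistatin, an activin and GDF11 antagonist. Itgb8 and Fst held in 3 and 2 of the 9 fits without a library. Fst was low in mesenchyme, at 1.09, 1.09 and 3.09 CPM in Wt and 0.326, 1.19 and 0.690 CPM in E1C8Δ/Δ. In E1C5Δ/Δ it measured 0.170, 0.506 and 0.266 CPM, from 20, 29 and 63 UMIs. With a sex covariate Itgb8 (adjusted p = 0.0582), Thbs1 (0.0703) and Fst (0.263) were all lost. They were also lost with the replicate block (adjusted p = 0.0710, 0.0592 and 0.0523). Itgb8 and Fst were high in the Sox9 core, whose share of the mesenchyme was lower in E1C5Δ/Δ than in Wt. Outside the core Itgb8 differed by -0.73 (adjusted p = 0.0917) and Fst by -1.97 (adjusted p = 0.0822) in E1C5Δ/Δ, and neither passed. Smad4 (0.06), Smad7 (-0.01), Acvr2a (0.04), Acvr2b (0.09), Acvr1b (-0.11) and Eng (-0.55, adjusted p = 0.162) did not pass for the mean of both mutants. In muscle progenitors, where follistatin is far higher than in mesenchyme (log2 3.94, SE 0.19), Fst measured 21.6, 16.7 and 59.9 CPM in Wt, 4.35, 8.56 and 8.76 CPM in E1C8Δ/Δ, and 4.15, 2.78 and 5.21 CPM in E1C5Δ/Δ. The value of E1C8Δ/Δ replicate 1 rests on 5 UMIs and that of E1C5Δ/Δ replicate 2 on 9 UMIs. All mutant libraries lay below all Wt libraries, by -2.32 (adjusted p = 0.00304), or by -1.66 to -2.68 without any 1 library, each called. With a sex covariate the difference was -2.39 and did not pass (adjusted p = 0.129). For the mean of both mutants, 2 of 35 tested genes of the list passed in muscle, both lower, beside 1.39% of all genes. The other was Ltbp1 (-0.77, adjusted p = 0.0371), called in 1 of the 9 fits without a library. None passed in erythroid cells (20 tested), epithelium (28) or endothelium (32).

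**Figure D5:**
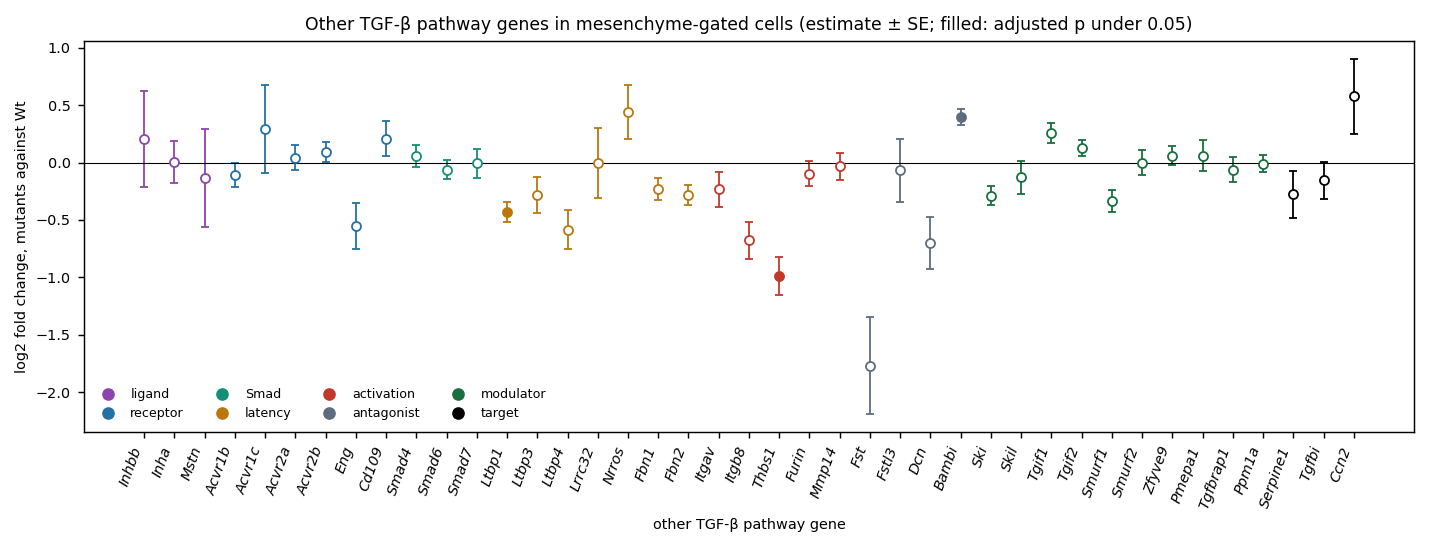
Log2 difference of the mean of both mutants from Wt in mesenchyme (y axis) for the 41 tested genes of the further pathway list, coloured by role, with bars of 1 SE and filled points for adjusted p under 0.05. The filled points are Ltbp1 (-0.43), Thbs1 (-0.99) and Bambi (0.40).

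The same list was compared between types and domains, where large shares of all genes passed. In endothelium 31 of 39 tested genes passed, 16 higher and 15 lower, beside 70.4% of all genes, led by Eng, the co-receptor endoglin (log2 7.94, SE 0.15), which was also higher in myeloid cells (4.16, SE 0.31), the types in which Tgfb1 and Tgfbr2 were highest. In the Sox9 core 23 of 38 passed, beside 59.7% of all genes. Of these 18 were higher, among them Fst (1.86) and Itgb8 (1.44). In the Hoxa13/Hoxd13 domain 20 of 37 passed, 11 higher and 9 lower, beside 48.2% of all genes, with Bambi (1.07) among the higher, and Itgb8 (-1.69) and Fst (-1.98) among the lower.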

How the data were processed

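The deposited files hold raw UMI counts per gene and cell barcode, which the authors made with Cell Ranger 6.0.1 from 10x libraries aligned to mm10 (Seurat 4.3.0.1 is also named in the submitters' processing notes). Barcodes passed with over 2500 genes detected, a UMI total below 200000 and a mitochondrial share below 10%. Doublets were removed at a rate proportional to the barcodes of the library, by their likeness to artificial doublets, and each cell was thinned to 10000 UMIs, leaving shallower cells out, before types were gated by at least 4 of their markers. Domains are mesenchymal cells with at least 3 to 5 domain markers, the lowest number that takes at most 10% of mesenchymal cells, a rule set after the marker distributions were seen. Raw counts were then summed per library and type or domain with at least 20 cells and fitted with edgeR 4.0.16 (R 4.3.3; TMM, filterByExpr, quasi-likelihood, Benjamini-Hochberg over all genes tested, threshold 0.05, SE from the F statistic), with library as a block between types or domains and all 3 genotypes in the genotype fits. DESeq2 1.42.0 and other settings were tried as alternatives. Scaling by library totals, the Wt libraries alone, the comparison of both alleles, mesenchyme outside the Sox9 core or the Osr2 domain, and the alternatives of the named pathway genes were added after the data were seen. The members and lists were chosen with earlier results of these data known. Of the other pathway genes, those past the threshold in mesenchyme (up to 10 by size) and a fixed few were named, and Fst in muscle, endoglin in the types and the domain examples were named after their values were seen. Simulated counts with 200 changed genes recovered 80.5% to 92.5% at a log2 change of 1. Intervals cover counting error only.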

Additional observations from a re-analysis of the deposited data

Results flagged for a closer look

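The alleles differed from each other in mesenchyme for Grem1 and for 5 of the 41 tested genes of the further pathway list, beside 9.23% of all genes, tested as E1C8Δ/Δ minus E1C5Δ/Δ on the log2 scale by edgeR's quasi-likelihood test. Grem1 was lower in E1C8Δ/Δ by -0.78 (adjusted p = 0.0226). Bambi was higher in E1C8Δ/Δ by 0.53 (adjusted p = 0.00501), Tgif1 by 0.56 (adjusted p = 0.0112), Pmepa1, which encodes an inhibitor of TGF-β signalling, by 0.78 (adjusted p = 0.0149), Smad6, an inhibitory Smad, by 0.42 (adjusted p = 0.0223) and Dcn, the matrix proteoglycan decorin, by 0.99 (adjusted p = 0.0457). Dcn was low, at 0.522, 0.910 and 0.788 CPM in E1C8Δ/Δ (8 UMIs in replicate 1) and 0.425, 0.436 and 0.350 CPM in E1C5Δ/Δ. It measured 0.728, 0.838 and 1.26 CPM in Wt, so no E1C8Δ/Δ library lay above the Wt range. Both mutant groups share no library, and the comparison was added after the data were seen.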

How the results depend on the processing

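The 35 calls between cell types numbered 33 to 37 under the other settings and 34 to 38 without any 1 library. In the Wt libraries alone 31 of the 35 were kept, with those of Tgfb3 and Tgfbr1 in muscle and of Smad2 and Smad3 in myeloid cells lost, and Tgfb2 in epithelium and endothelium was added. Of the 51 domain calls, 40 passed with DESeq2. In the Wt libraries alone 37 of them had enough cells to be tested and 24 passed, and with 1 more marker 28 could be tested and 13 passed (14 with 1 further call). There were 42 to 53 calls without any 1 library. With that stricter gate Tgfbr3 in the Sox9 core turned to -0.024 and Gdf11 in the Sostdc1 domain to -0.023. The 1 call among the 10 genes for both mutants in mesenchyme became 0 with a sex covariate or with only the groups of the contrast, and 0 to 2 without any 1 library, and the 1 call for E1C8Δ/Δ became 0 in those fits and with scaling by library totals, and 0 to 3 without any 1 library. For E1C5Δ/Δ 0 became 1 with DESeq2 and stayed at 0 without any 1 library. In the other types 0 became 1 without a filter on low counts, and 0 to 1 without any 1 library, each time Tgfb2 in epithelium, and in the domains 0 became 1 without that filter. The 3 other pathway genes became 9 with DESeq2, 5 without the filter, 1 with the groups of the contrast only, 0 with the sex covariate and 0 to 7 without any 1 library. The Grem1 difference was -1.14 with the sex covariate (adjusted p = 0.0901), -1.06 with the groups of the contrast only (adjusted p = 0.104), and -1.22 to -0.93 without any 1 library. In mesenchyme outside the Sox9 core, an alternative chosen after seeing the data, the calls among the 10 genes became 0 for both mutants and 0 for E1C8Δ/Δ, while outside the Osr2 domain their numbers did not change. The cause of these changes was not tested.

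Replicate numbers were shared by the 3 genotypes. The paper states that cells were isolated and sequenced 3 times, using 1 bud pair per genotype. Whether libraries with the same number came from the same round is not stated. Same-numbered libraries correlated at -0.157 to 0.0978 in their deviations from the group means, 0 of 9 pairs over 0.1, and 1 library correlated best with its own number, so the numbers were not taken to pair libraries. With the replicate block the calls in mesenchyme became 0 for both mutants, 0 for E1C8Δ/Δ and 0 of the other pathway genes (Thbs1 -0.98, Ltbp1 -0.44 and Bambi 0.40, with adjusted p of 0.0572, 0.0853 and 0.0642), and 1 in the other types (Tgfb2 in epithelium).

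Depth limits the low genes most. Inhba, with 231 UMIs in mesenchyme, did not pass the filter on low counts between types.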

Other observations

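Within epithelium, 61 cells passed as apical ridge and 256 as other epithelium, and only 1 library held 20 ridge cells, so no test was made and values are pooled over libraries with exact Poisson intervals that cover counting error only. Ridge cells held at least 2 ridge markers and the others none, so a contrast in such markers follows from the gate. Fgf8, the ridge growth factor, measured 2674 CPM in ridge cells and 0.514 CPM in the others. Tgfb1 measured 19.6 CPM (13.7 to 27.2) against 8.23 CPM (6.34 to 10.5), Gdf11 33.3 CPM (25.4 to 42.7) against 19.8 CPM (16.8 to 23.2) and Tgfbr2 8.73 CPM (4.99 to 14.2) against 2.06 CPM (1.18 to 3.34). Smad2 measured 38.2 against 54.5 CPM, with intervals that did not overlap. Tgfb2 measured 43.1 CPM (34.1 to 53.7) against 33.3 CPM (29.4 to 37.6), intervals that overlap, as did those of Tgfb3, Inhba, Tgfbr1, Tgfbr3 and Smad3. The genotypes entered these pools in different shares, with 29 ridge and 66 other cells from Wt, 19 and 132 from E1C8Δ/Δ, and 13 and 58 from E1C5Δ/Δ. By genotype, Tgfb1 and Gdf11 were higher in ridge cells in each of the 3, as levels with no test. Smad2 measured 33.4 CPM in ridge cells and 56.2 CPM in the others in Wt, and 30.4 and 63.1 CPM in E1C5Δ/Δ, but 53.5 and 46.9 CPM in E1C8Δ/Δ. Tgfbr2 had 12 UMIs in Wt ridge cells and 0 in the other Wt cells. The ridge cells of each mutant had 2 UMIs, with 6 in the other E1C8Δ/Δ cells and 10 in the other E1C5Δ/Δ cells. Tgfbr2 thus measured 3.96 CPM in ridge cells against 1.90 CPM in E1C8Δ/Δ, and 4.34 against 4.18 CPM in E1C5Δ/Δ.

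Across the 17 types and domains of the Wt libraries, which share libraries and in part cells, the gene with the most similar pattern of log2(CPM + 1) among 10636 genes compared was Pcgf5 for Tgfb1 (Pearson r = 0.964), Aamdc for Tgfb2 (0.960), Lrig3 for Tgfb3 (0.960), Pcolce for Gdf11 (0.991), Hp1bp3 for Tgfbr1 (0.988), Mapk3 for Tgfbr2 (0.977), Cdc42bpa for Tgfbr3 (0.939), Ppp2r2a for Smad2 (0.986) and Adnp2 for Smad3 (0.982). For Inhba, which stayed under 10 CPM in every group, it was Pappa (0.779). These are descriptions across cell groups, with no test. CPM here used library totals, so the hemoglobin share of erythroid UMIs lowers most genes together in that group. Its part in these r values was not tested.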
